A study of Mus musculus with 24 samples.

Results

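The 9 complement genes C1qa, C1qb, C1qc, C2, C4b, C3, Cfb, C3ar1 and C5ar1 were followed by gene symbol through bulk RNA sequencing of mouse quadriceps, and all 9 were among the 14159 genes with a symbol. The 24 libraries fell into 8 groups of 3. The mice were females aged 6 to 8 weeks at surgery, either C57BL/6 (here B6) or MRL/MpJ (here MRL), and they were either left without injury or received a volumetric muscle loss (VML) injury, in which a piece of the quadriceps is cut out. The defect received saline alone, which is the control injury, or was filled with extracellular matrix from decellularized tissue (ECM) or with a powder of polyethylene (PE), and injured muscle was taken on day 21. Both are inbred strains with no transgene named, MRL mice being known for autoimmunity and for healing some wounds with little scar, and each library came from a whole frozen muscle. Levels are given as log2 CPM, the log2 of a gene's reads scaled to a common library size, for replicates 1, 2 and 3 in that order. In whole muscle, fewer cells of a type and less RNA per cell cannot be told apart.

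Complement is a cascade of plasma proteins that tags foreign surfaces and dying cells. In the classical pathway C1q, built from the chains encoded by C1qa, C1qb and C1qc, binds a target and leads to cleavage of C4 and C2, which together form an enzyme that cleaves C3. Factor B, encoded by Cfb, forms the corresponding enzyme of the alternative pathway. Small fragments released from C3 and C5 act on myeloid cells through the receptors encoded by C3ar1 and C5ar1. Macrophages are a main source of C1q, whereas C3, C4 and factor B are made by hepatocytes and also by adipocytes, fibroblasts and other cells.

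The C1q genes lie next to each other within 20153 bases of chromosome 4, at chr4:136606009-136613511 (C1qb), chr4:136616466-136620376 (C1qc) and chr4:136623223-136626161 (C1qa). C4b (chr17:34947354-34962912), Cfb (chr17:35074852-35081559) and C2 (chr17:35081578-35117241) share a locus on chromosome 17, and C3 lies apart from them at chr17:57510964-57535155. The receptor genes are at chr6:122823393-122833122 (C3ar1) and chr7:15980668-15993465 (C5ar1). All 9 are protein-coding and on the minus strand of GRCm39. The values of 3 genes are uncertain because of their neighbours. Gm20547, an annotated gene that shares 65.7% of the exon bases of Cfb and 38.4% of those of C2, was listed at 0 in 12 of 24 libraries and reached 2.40 log2 CPM in replicate 2 of PE-treated MRL mice. C4a, a near-identical copy of C4b, was not among the genes analysed here, and reads of the pair may have been assigned to either.

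RefSeq promoters on GRCm38.p6, each 250 bases before to 50 after the start, were at hand for 5 of the 9 genes. The promoters of C1qb (chr4:136886151-136886450), C1qc (chr4:136892865-136893164) and C3 (chr17:57228087-57228386), all on the minus strand, are shown because the C1q genes moved together in the libraries and C3 did not move with them. They are written 5′ to 3′ with matches to any of 5 motifs, searched on both strands, in capitals.
C1qb: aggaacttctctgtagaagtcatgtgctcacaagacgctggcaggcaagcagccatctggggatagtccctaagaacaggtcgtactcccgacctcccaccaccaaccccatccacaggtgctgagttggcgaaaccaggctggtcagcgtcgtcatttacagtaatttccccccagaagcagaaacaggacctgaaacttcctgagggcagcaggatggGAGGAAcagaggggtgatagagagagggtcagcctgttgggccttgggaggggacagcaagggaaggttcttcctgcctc
C1qc: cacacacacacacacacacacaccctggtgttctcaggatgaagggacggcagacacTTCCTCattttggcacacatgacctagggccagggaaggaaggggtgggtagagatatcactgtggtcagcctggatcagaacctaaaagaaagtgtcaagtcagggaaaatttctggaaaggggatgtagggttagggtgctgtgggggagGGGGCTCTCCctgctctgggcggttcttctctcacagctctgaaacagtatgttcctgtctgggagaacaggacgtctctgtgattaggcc
C3: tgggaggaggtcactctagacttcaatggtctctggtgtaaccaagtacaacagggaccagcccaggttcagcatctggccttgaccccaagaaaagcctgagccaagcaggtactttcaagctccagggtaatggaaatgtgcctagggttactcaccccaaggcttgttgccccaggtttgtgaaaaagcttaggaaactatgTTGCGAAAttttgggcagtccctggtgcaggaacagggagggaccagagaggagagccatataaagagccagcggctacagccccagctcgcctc
GAGGAA, the core bound by the myeloid factor PU.1, occurred in C1qb from position -30 relative to the start and, on the opposite strand, in C1qc from position -193, and 28.3% of all 32851 promoters held it. TTGCNNAA, a C/EBP motif, occurred in C3 from position -45 and in 10.8% of promoters. An NF-kB motif occurred in C1qc from position -41 and in 8.46% of promoters. Neither the interferon response motif (GAAA, then 2 bases of any kind, then GAAA again), found in 3.44% of promoters, nor TTCNNNGAA, a STAT motif found in 8.3%, was present in these 5 promoters, and those of C3ar1 and C5ar1 held none of the 5 motifs. No 2 of these matches overlapped. A match describes the letters only and was not tested as a binding site.

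One library stood apart from its group. Replicate 2 of PE-treated MRL mice correlated with the other 2 libraries of that group at Pearson's r of 0.812 and 0.827 across genes, whereas the lowest value within any other group was 0.904. Its summed level of 10 macrophage markers was 4415 CPM, against 255 and 285.5 CPM in replicates 1 and 3. Its 5 adipocyte markers summed to 108.6 CPM, against 1818 and 1062 CPM, and its 7 myofibre markers to 26690 CPM, against 105300 and 103000 CPM in the other 2 libraries. Results on PE-treated MRL mice are therefore given with and without this library. Myofibre markers were abundant in every library, and no macrophage, adipocyte or myofibre marker was at 0 in any. The hepatocyte markers Alb, Apoa1 and Ttr summed to between 15.43 and 69.75 CPM, with Alb at 0 in 1 library and Ttr in 2.

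The first question was how the injury and each material altered complement expression in B6 mice. With PE the C1q genes and both receptor genes rose, and C2, C4b, C3 and Cfb gave no call. Groups were compared with limma over all 24 libraries with Benjamini-Hochberg adjustment over all genes, and calls were made below an adjusted p of 0.05. Of the 9 genes, 5 were called higher in PE-treated than in uninjured B6 mice, where 14.7% of all genes were called higher. The median log2 fold change of the 9 was 2.53, against 0.02 over all genes. Fold changes are on the deposited log2 scale, which carries a prior count and understates the change of low genes.

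C3ar1, the receptor for the C3a fragment, stood at 1.70, 1.52 and 1.64 log2 CPM in uninjured B6 mice, at 2.87, 2.72 and 3.08 after the control injury, at 5.87, 3.48 and 4.93 with ECM and at 6.32, 7.39 and 5.78 with PE. The PE libraries lay above all control-injury and uninjured libraries, and the ECM libraries lay between them with 1 overlapping the PE group. C3ar1 was 29.4-fold higher with PE than without injury (log2 fold change 4.88, SE 0.85, limma adjusted p = 0.0023).

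C5ar1, the receptor for C5a, was at 1.05, 1.43 and 1.35 log2 CPM without injury, 1.51, 1.68 and 2.19 with saline, 3.37, 1.46 and 3.06 with ECM, and 4.59, 5.82 and 3.61 with PE in B6 mice. It was 10.5-fold higher with PE than without injury (log2 fold change 3.40, SE 0.62, limma adjusted p = 0.0028). All 3 PE libraries lay above every other B6 library.

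For C1qb, B6 libraries were at 3.61, 3.62 and 3.96 log2 CPM without injury, 5.11, 4.83 and 5.16 with saline, 6.15, 4.70 and 5.99 with ECM, and 6.98, 7.87 and 6.19 with PE. C1qb rose 9.73-fold with PE (log2 fold change 3.28, SE 0.52, limma adjusted p = 0.0018). The other 2 chains rose with it. C1qa went from 4.05, 4.26 and 4.49 log2 CPM without injury through 5.33, 5.44 and 5.49 with saline and 6.70, 5.42 and 6.50 with ECM to 6.64, 7.58 and 6.17 with PE, a log2 fold change of 2.53 (SE 0.53, limma adjusted p = 0.0050). C1qc went from 3.89, 3.81 and 4.22 through 4.94, 4.80 and 5.10 with saline and 6.28, 4.58 and 5.79 with ECM to 6.45, 7.26 and 5.89 log2 CPM, a log2 fold change of 2.56 (SE 0.50, limma adjusted p = 0.0033). These 5 genes were called in every alternative fit, the highest adjusted p being 0.047 for C1qa.

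C3, the protein on which all activation routes converge, gave no call. It was at 7.84, 9.37 and 8.22 log2 CPM in uninjured B6 mice, 7.76, 7.65 and 6.71 with saline, 7.02, 6.38 and 8.37 with ECM, and 7.99, 9.21 and 7.94 with PE. The 3 saline libraries lay below the 3 uninjured ones, and PE and uninjured libraries overlapped. The log2 fold change of C3 was -1.10 with saline, -1.22 with ECM and -0.10 with PE (limma adjusted p = 0.48, 0.33 and 0.92). Cfb was at 4.12, 4.97 and 4.21 log2 CPM without injury, 4.87, 4.68 and 3.87 with saline, 3.36, 3.22 and 5.13 with ECM, and 5.10, 5.91 and 4.68 with PE. C2 was at 2.77, 3.50 and 2.17 without injury, 3.37, 2.86 and 2.88 with saline, 1.99, 2.70 and 3.32 with ECM, and 3.27, 3.67 and 3.04 with PE. C4b, whose product binds covalently to the target surface, was at 5.37, 6.11 and 5.85 without injury, 7.25, 6.84 and 5.37 with saline, 6.24, 5.69 and 7.31 with ECM, and 6.05, 7.01 and 6.24 with PE. For all 3 genes the PE libraries overlapped the uninjured ones. Cfb and C2, the catalytic components of the alternative and classical enzymes, differed from uninjured B6 muscle by log2 fold changes of 0.80 and 0.51 with PE (limma adjusted p = 0.24 and 0.27), and C4b by 0.66 (limma adjusted p = 0.30).

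**Figure D1:**
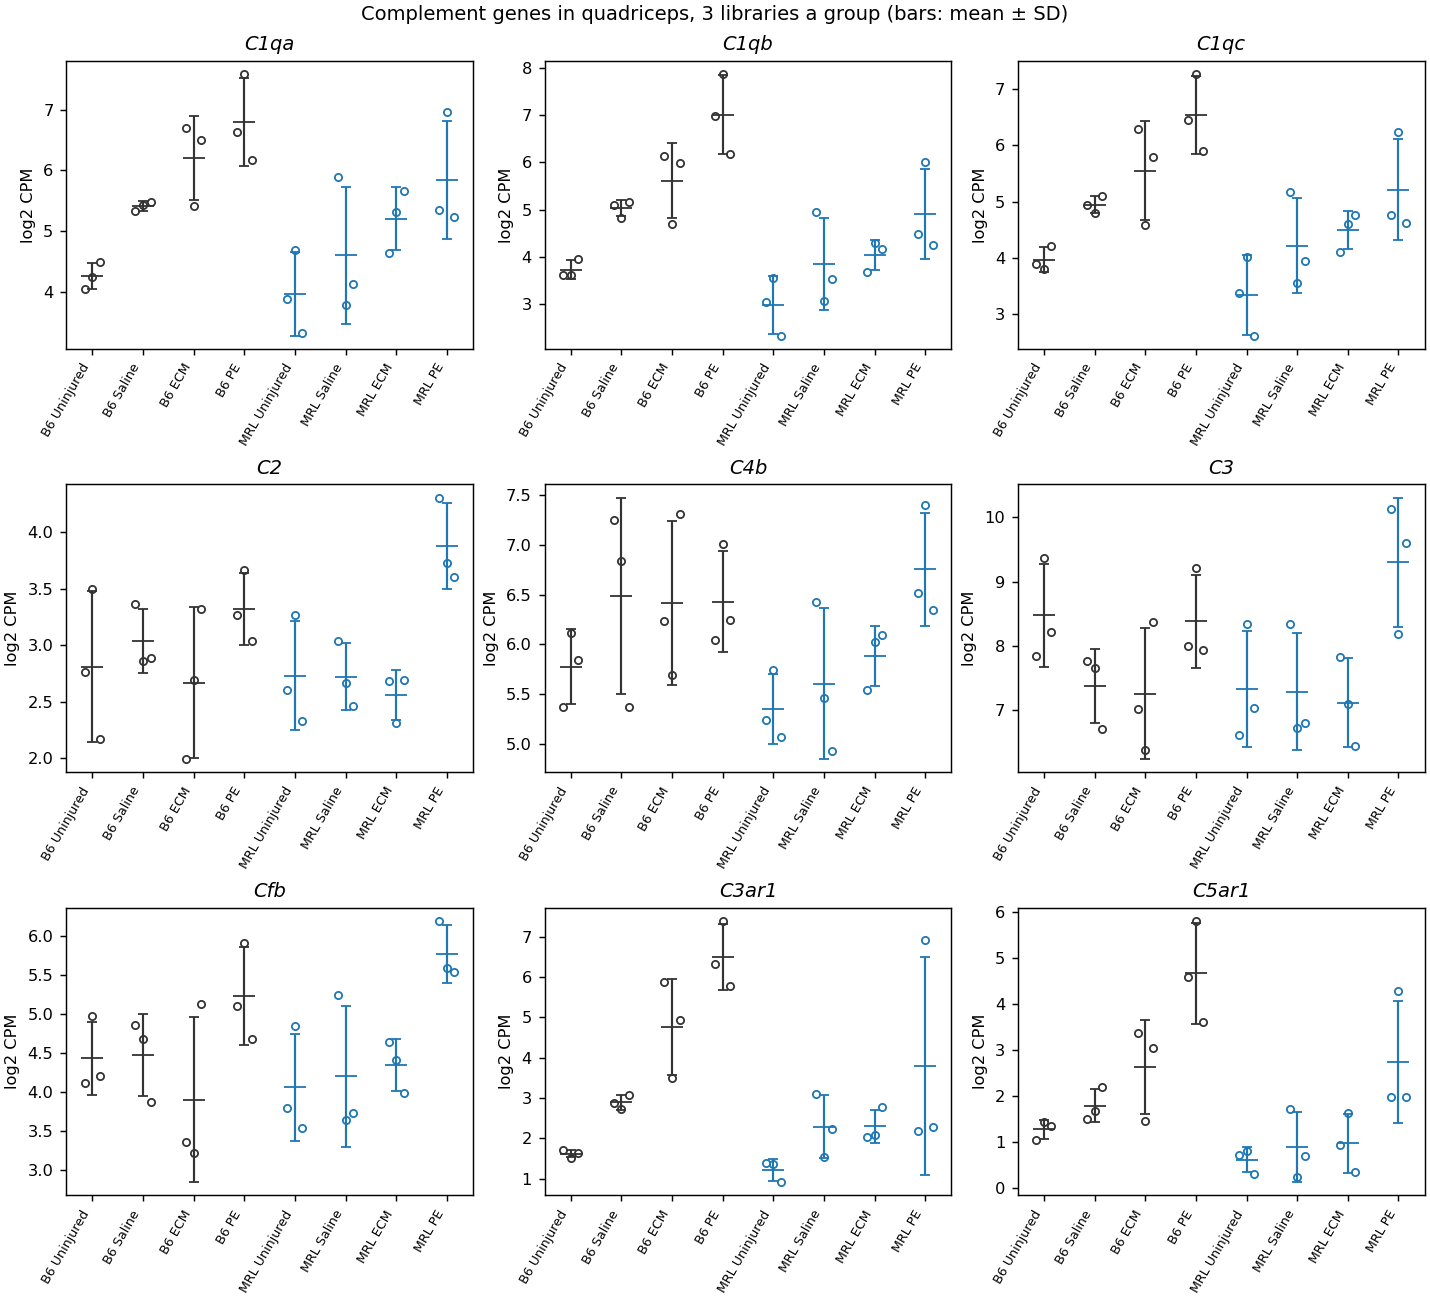
Level of each complement gene (vertical axes, log2 CPM, different range in each panel) in the 3 libraries of each group, B6 in black and MRL in blue, with horizontal marks and bars for the mean ± SD. In B6 mice C3ar1 climbs from 1.62 ± 0.09 without injury to 6.50 ± 0.82 with PE, and in PE-treated MRL mice 1 library at 6.92 sits far above the other 2.

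Saline and ECM gave no call among the 9 genes in B6 mice. The control injury called 0 of the 9 genes and 0% of all genes against uninjured muscle with limma. An unadjusted p under 0.05 was found for 2 of the 9 (C1qa and C1qb, log2 fold changes 1.15 and 1.31) and for 12.4% of all genes. For C3ar1 the log2 fold change was 1.27 with an SE of 0.85, which draws on the spread of all 24 libraries. Its SDs were 0.09 without injury and 0.18 with saline in B6 mice. The study's authors name C1qa, C1qb and C3ar1 among the genes strongly raised after injury in B6 mice. They present them in a plot of significantly altered genes, whereas 0% of all genes were called here. The authors' own fit was not repeated. All 3 C1q genes and both receptor genes were higher in every saline library than in any uninjured library, and C3 was lower in every one, in a comparison where 15.9% of all genes did not overlap. ECM called 0 of the 9 genes with limma, where 0.424% of all genes were called, while 5 had an unadjusted p under 0.05, as had 16.8% of all genes. These 5 were C3ar1 (log2 fold change 3.14, adjusted p = 0.10), C1qa (1.94, 0.11), C1qb (1.88, 0.11), C1qc (1.58, 0.14) and C5ar1 (1.35, 0.28), and for each the ECM libraries lay entirely above the uninjured ones, as did those of 17.7% of all genes.

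Compared with the control injury, PE called 3 of the 9 genes in B6 mice, all higher, where 5.37% of all genes were called higher. C3ar1 was 12.2-fold higher (log2 fold change 3.60, SE 0.85, limma adjusted p = 0.026), C5ar1 7.36-fold (2.88, SE 0.62, limma adjusted p = 0.021) and C1qb 3.94-fold (1.98, SE 0.52, limma adjusted p = 0.034). All 3 C1q genes, C3 and both receptor genes were higher in every PE library than in any saline library, as were 18.7% of all genes. C1qc and C1qa missed the threshold at log2 fold changes of 1.59 and 1.38 (limma adjusted p = 0.062 and 0.12). None of these calls remained when replicate 1 or 2 of PE-treated or any 1 replicate of saline-treated B6 mice was left out, whereas 4 were made without replicate 3 of the PE group. The share of all genes called in those fits is not given here. ECM against saline called 0 of the 9 genes, with 0.0283% of all genes called by limma. At an unadjusted p under 0.05 there was 1 of the 9 (C3ar1, log2 fold change 1.87), beside 3.99% of all genes. ECM against PE also called 0 of 9, with 0.226% of all genes called by limma. All 9 genes had a lower mean with ECM than with PE, as had 7147 of all 14159 genes. An unadjusted p under 0.05 was found for 3 of the 9, C5ar1 at -2.04, C1qb at -1.40 and Cfb at -1.33, and for 20.6% of all genes.

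In MRL mice PE moved genes of both sets. All 9 genes had a higher mean in PE-treated than in uninjured MRL muscle with an unadjusted p under 0.05. Over all genes 36.1% had such a p, in either direction. Limma called 6 of the 9 (C1qa, C1qb, C1qc, C2, Cfb and C5ar1), where 5.95% of all genes were called higher. Their adjusted p-values lay between 0.045 and 0.048, and those of C3, C3ar1 and C4b were 0.052, 0.055 and 0.058, so the called and uncalled genes lay close to the threshold. The median log2 fold change of the 9 was 1.87, against 0.07 over all genes. Without replicate 2 of PE-treated MRL mice, 0 of the 9 genes and 1 gene in all was called, and 0 of 9 were also called without replicate 1 or 3 of uninjured MRL mice. Leaving out replicate 3 of the PE group instead gave 8 calls. The share of all genes called in that fit is not set beside this count, which therefore does not set these genes apart. Quantile normalization, a fit of the compared groups alone and a replicate block each gave 0 calls as well. In the fit without replicate 2, the log2 fold changes of C1qa, C1qb and C1qc were 1.31, 1.39 and 1.35, those of C2 and Cfb 1.22 and 1.81, that of C4b 1.08 and that of C5ar1 1.37 (limma adjusted p between 0.18 and 0.27 for these 7 genes).

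C3 was at 6.61, 8.33 and 7.04 log2 CPM in uninjured MRL mice, 8.34, 6.71 and 6.80 with saline, 7.83, 7.09 and 6.44 with ECM, and 10.13, 8.18 and 9.60 with PE. Replicates 1 and 3 of the PE group held the 2 highest C3 levels of all 24 libraries, and replicate 2 lay within the range of the uninjured mice. The log2 fold change against uninjured MRL muscle was 1.98 (SE 0.63), and 2.54 (limma adjusted p = 0.18) without replicate 2. Cfb was at 3.80, 4.84 and 3.54 log2 CPM without injury, 5.25, 3.64 and 3.72 with saline, 4.65, 4.41 and 3.98 with ECM, and 6.20, 5.59 and 5.54 with PE. All 3 PE libraries lay above every other MRL library, and Cfb was 3.28-fold higher (log2 fold change 1.71, SE 0.51, limma adjusted p = 0.047). C2 was at 2.60, 3.27 and 2.33 log2 CPM without injury, 3.04, 2.67 and 2.46 with saline, 2.69, 2.31 and 2.69 with ECM, and 4.31, 3.73 and 3.60 with PE (log2 fold change 1.15, SE 0.35, limma adjusted p = 0.048). When each was summed with the overlapping Gm20547, the changes of C2 and Cfb were 0.99 and 1.61 (limma adjusted p = 0.046 for both). C4b was at 5.24, 5.74 and 5.06 log2 CPM without injury and 6.52, 7.40 and 6.35 with PE, with no overlap (log2 fold change 1.41, SE 0.48, limma adjusted p = 0.058).

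The receptor C3ar1 had the reverse arrangement within the PE group of MRL mice. It was at 1.38, 1.35 and 0.90 log2 CPM without injury, 3.09, 1.53 and 2.23 with saline, 2.03, 2.08 and 2.77 with ECM, and 2.19, 6.92 and 2.29 with PE. Only replicate 2 was in the range of the PE-treated B6 mice. The log2 fold change was 2.59 (SE 0.85) with that library and 1.03 (limma adjusted p = 0.30) without it. C5ar1 showed the same split, with 0.72, 0.81 and 0.30 log2 CPM without injury and 1.98, 4.28 and 1.98 with PE, as did C1qa with 3.89, 4.70 and 3.33 and then 5.35, 6.96 and 5.23. C1qb went from 3.05, 3.56 and 2.34 log2 CPM to 4.49, 6.00 and 4.25, and C1qc from 3.38, 4.02 and 2.62 to 4.77, 6.24 and 4.62. For these 5 genes, replicates 1 and 3 also lay above every uninjured MRL library. PE and uninjured MRL libraries did not overlap for 8 of the 9 genes (all but C3), nor for 18.9% of all genes in that direction.

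**Figure D2:**
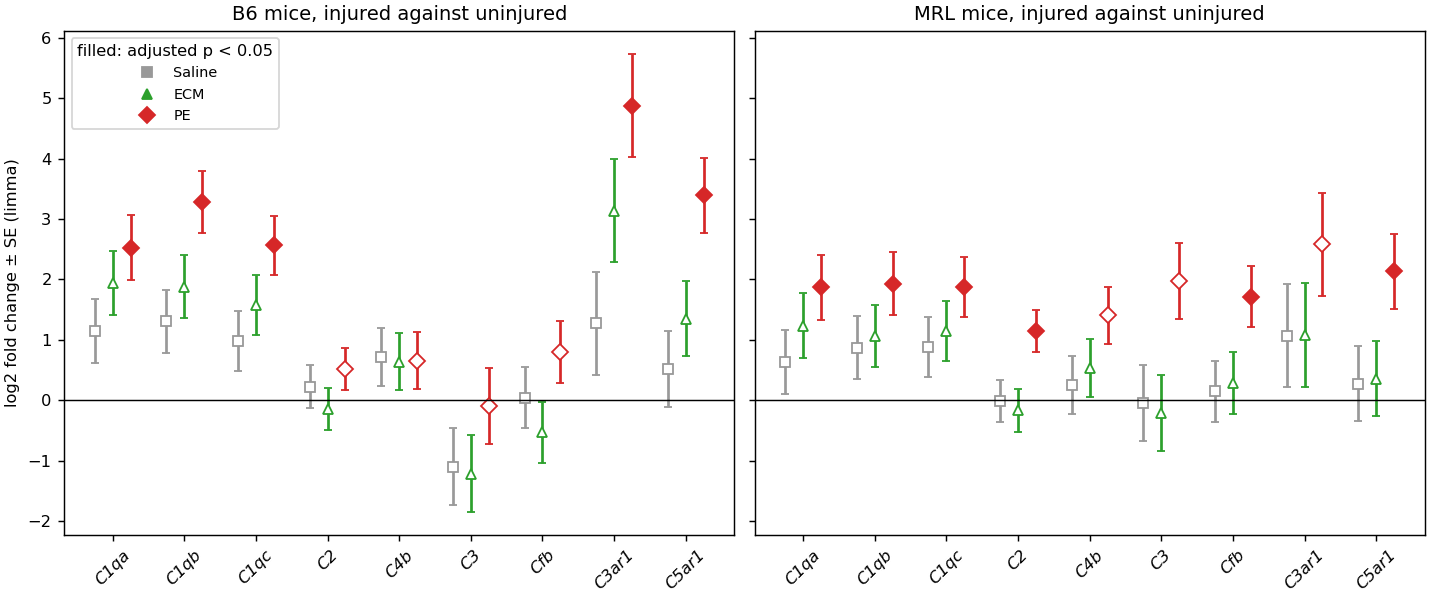
Log2 fold change (vertical axis) of each gene against uninjured muscle of the same strain for saline (grey squares), ECM (green triangles) and PE (red diamonds), with bars for the limma standard error and filled symbols for an adjusted p under 0.05. In B6 mice the PE values of C3ar1 (4.88) and C3 (-0.10) lie far apart, whereas in MRL mice all 9 PE values lie between 1.15 and 2.59.

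The other MRL comparisons gave no call among the 9 genes by limma. The control injury against uninjured muscle had 0 at an unadjusted p under 0.05, beside 3.1% of all genes, and 0% of all genes called. ECM had 2 at that level (C1qa, log2 fold change 1.24, and C1qc, 1.15), beside 3.8% of all genes, with 0.0141% of all genes called. PE against saline had 6 of 9 at an unadjusted p under 0.05, as had 23.3% of all genes, and 0% of all genes were called. Among the 6 were C3 (log2 fold change 2.02, adjusted p = 0.12), Cfb (1.57, 0.12) and C2 (1.16, 0.11). Without replicate 1 of saline-treated MRL mice, C1qa, C3 and Cfb were called in that comparison. ECM against saline had 0 at an unadjusted p under 0.05, beside 3.55% of all genes, and 0.00706% of all genes called. ECM against PE had 4 of 9 at an unadjusted p under 0.05, as had 28.4% of all genes, again with 0% of all genes called. C3 was lower with ECM than with PE by -2.19 (adjusted p = 0.066), C2 by -1.32 (0.060), C5ar1 by -1.78 (0.091) and Cfb by -1.43 (0.093), and without replicate 3 of the PE group C2 and C5ar1 were called. The calls made with a library left out are given here without the share of all genes called in the same fits. Without replicate 2 of the PE group, C3 differed by 2.58 from saline and by -2.75 between ECM and PE, and C3ar1 by -0.04 and 0.05 (limma adjusted p = 0.17, 0.10, 0.98 and 0.97).

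Across all 24 libraries the 9 genes fell into groups by how they varied, given here as a description over libraries that share 8 group means. The C1q genes and the 2 receptor genes varied together, with Pearson's r between 0.88 and 0.99 for every pair. C3, Cfb and C2 formed another set, with r between 0.77 and 0.88. C4b lay between, at 0.74 with C1qa and 0.69 with Cfb. C3 and its receptor gene C3ar1 had an r of 0.14.

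**Figure D3:**
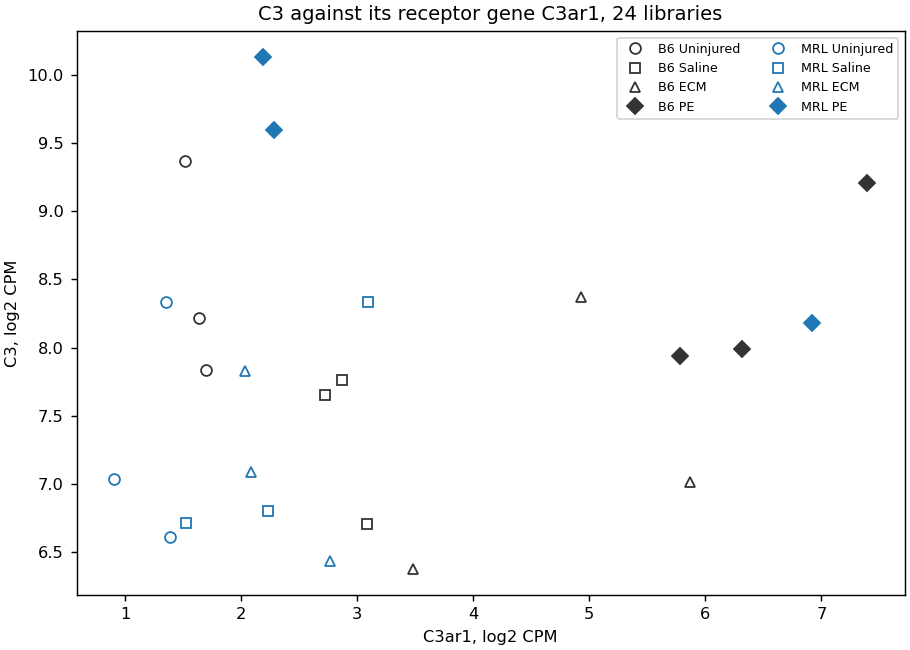
Level of C3 (vertical axis, log2 CPM) against C3ar1 (horizontal axis, log2 CPM) in each of the 24 libraries, B6 in black and MRL in blue, with the shape for the treatment and filled diamonds for PE. PE-treated B6 libraries lie at high C3ar1 (5.78 to 7.39), and 2 PE-treated MRL libraries lie at the highest C3 (9.60 and 10.13) with C3ar1 near 2.2.

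Genes outside the 9 that varied most like each of them over the 24 libraries were named by the highest Pearson's r. For C3ar1 they were Fcer1g (0.99), an Fc receptor signalling chain of myeloid cells, Cd72 (0.98) and Cd53 (0.98). For C1qb they were Emr1 (0.97), which encodes the macrophage protein F4/80, and the Fc receptor genes Fcgr1 and Fcgr2b (both 0.96), for C1qc Clec4a1, Emr1 and Fcgr2b (all 0.97), and for C1qa Cd74, Fcgr2b and Clec4a1 (all 0.95). C5ar1 was most like Hpcal1, Ikbke (both 0.96) and Cd180 (0.95). C3 was most like Cebpa (0.94), which encodes C/EBP alpha, a transcription factor of adipocytes and myeloid cells, Sod3 and Mgst1 (both 0.94). Scarb1, a lipoprotein receptor gene, was among the nearest to both C2 (0.90) and Cfb (0.92), with Fam149a (0.89) and Neil2 (0.88) for C2 and Kctd17 (0.93) and Cd302 (0.91) for Cfb. C4b had no close companion, its nearest genes being Fcrls (0.81), Pdgfc and Fkbp14 (both 0.80).

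Macrophage and neutrophil markers rose with PE in B6 mice. The 10 macrophage markers summed to between 154.1 and 218.5 CPM in uninjured, 284.1 and 336.3 in saline-treated, 259.5 and 843.1 in ECM-treated and 1419 and 5083 in PE-treated B6 mice, and 8 of the 10 were called higher with PE than without injury, as were 14.7% of all genes. The mean of 1 of the 10 was lower with PE, by -1.17, without a call. In MRL mice the 10 markers summed to between 106.2 and 253.7 CPM without injury and to between 178 and 452.3 CPM with saline or ECM. With PE they summed to 255, 4415 and 285.5 CPM in replicates 1, 2 and 3. Replicates 1 and 3 were thus little above the uninjured range, although their C1q and receptor genes lay above every uninjured MRL library. All 4 neutrophil markers in the matrix, of 10 listed, were also called higher in PE-treated B6 mice, where they summed to between 16.31 and 127.4 CPM against 1.003 to 3.079 CPM without injury. In PE-treated MRL mice 0 of these 4 were called, where 5.95% of all genes were called higher. The part of these cells in the change of C1q and receptor genes was not tested.

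Adipocyte markers had another order. The 5 genes summed to between 285.2 and 1116 CPM in uninjured B6 mice, with C3 at its B6 maximum in the library of 1116 CPM. In PE-treated B6 mice they summed to only 29.95 to 87.37 CPM while C3 stayed between 7.94 and 9.21 log2 CPM. In MRL mice the 2 PE libraries with 1062 and 1818 CPM were those of highest C3. Fibroblast markers, 5 genes, summed to between 4122 and 7464 CPM in PE-treated B6 mice and to between 921.1 and 1349 CPM in uninjured ones, and in replicate 2 of PE-treated MRL mice to 12660 CPM. Their part in the level of C3 was not tested.

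**Figure D4:**
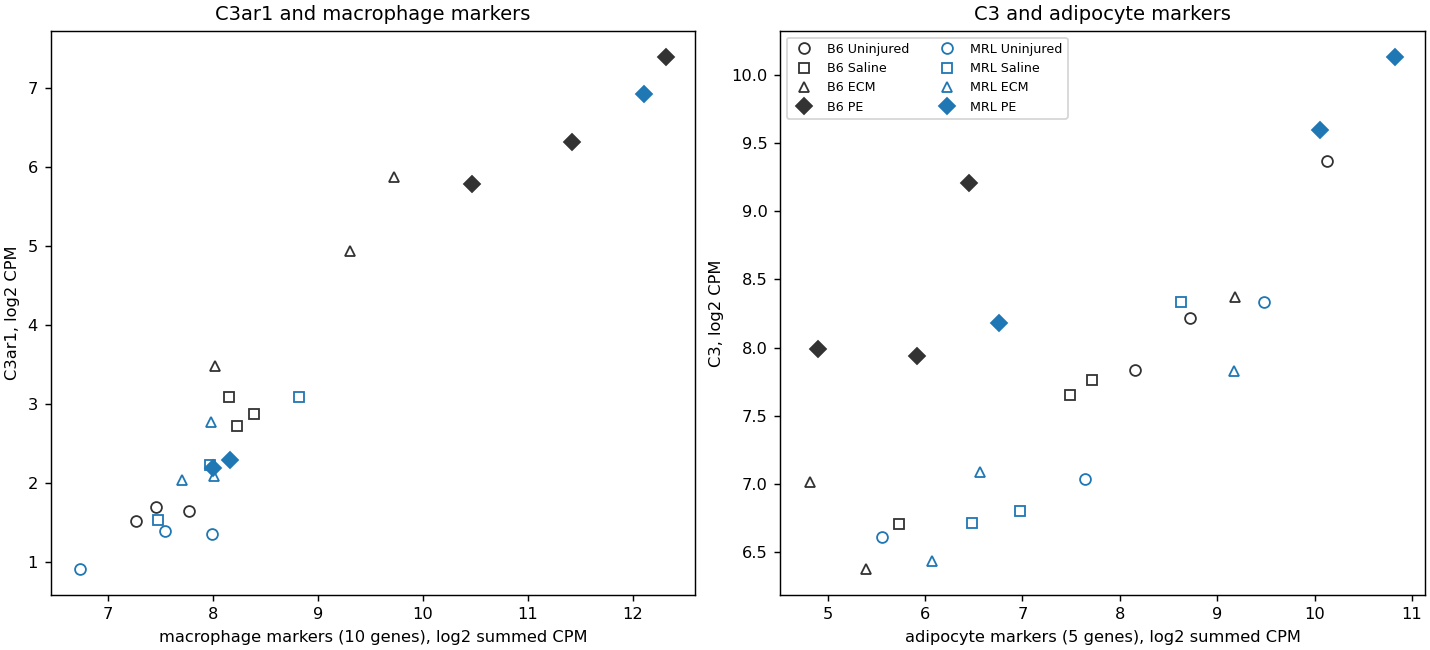
Left, C3ar1 (log2 CPM) against the summed level of 10 macrophage markers (log2 CPM), and right, C3 (log2 CPM) against that of 5 adipocyte markers, 1 point a library with B6 in black, MRL in blue and filled diamonds for PE. On the right, PE-treated B6 libraries hold C3 between 7.94 and 9.21 at adipocyte sums of at most 87.4 CPM, and replicate 2 of PE-treated MRL mice lies near them (8.18 at 108.6 CPM).

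The next question was how the strains differed under the same treatment. In uninjured muscle, MRL mice had a lower mean than B6 mice for all 9 genes, as for 7076 of all 14159 genes. Limma called 0 of the 9, with 2.6% of all genes called. It found 0 of the 9 at an unadjusted p under 0.05, beside 10.9% of all genes. For C2 the log2 difference was only -0.08. Gm20547, which overlaps it, was at 1.60 and 3.02 CPM in replicates 1 and 3 of uninjured MRL mice and at or near 0 in uninjured B6 mice. The direction for C2 is therefore uncertain. C1qb, C3ar1 and C5ar1 were lower in every uninjured MRL library than in any B6 library, as were 9.61% of all genes. After the control injury 0 of 9 were called, with 2.51% of all genes called. C1qb alone (log2 difference, MRL minus B6, of -1.18) was at an unadjusted p under 0.05, beside 13.3% of all genes. With ECM 0 of 9 were called, with 2.66% of all genes called, and 4 had an unadjusted p under 0.05, as had 13.4% of all genes. They were C3ar1 (log2 difference -2.47, limma adjusted p = 0.17), C5ar1 (-1.66, 0.23), C1qb (-1.57, 0.14) and C1qc (-1.06, 0.36).

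In PE-treated mice limma called C1qb alone, lower in MRL mice (log2 difference -2.10, SE 0.52, adjusted p = 0.028), where 1.74% of all genes were called lower. All 3 MRL libraries, at most 6.00 log2 CPM, lay below the lowest B6 library at 6.19. C1qb was no longer called without replicate 1 or 2 of the B6 group or without replicate 1 or 3 of the MRL group (adjusted p between 0.093 and 0.16), nor with equal library totals (0.057) or in a fit of the compared groups alone (0.28). C3ar1 (-2.70), C5ar1 (-1.92), C1qc (-1.32) and C1qa (-0.95) were also lower on average in MRL mice, and C3 (0.92), C2 (0.56), Cfb (0.54) and C4b (0.32) were higher, without a call. Without replicate 2 of the MRL group, 2 MRL libraries remained. That replicate alone of its group had macrophage markers in the range of the PE-treated B6 mice (4415 against 1419 to 5083 CPM). In the fit without it limma called 3490 genes in all, 14.1% of all genes lower and 10.6% higher in MRL mice. It called 5 of the 9 genes, all lower. They were C3ar1 (log2 difference -4.26, adjusted p = 1.6e-05), C5ar1 (-2.69, 0.0027), C1qb (-2.65, 0.0011), C1qc (-1.84, 0.011) and C1qa (-1.50, 0.046), while C3 reached 1.48 (0.11). Replicate 2 was singled out in these same libraries and held the highest level of each of these 5 genes in its group. Leaving it out therefore lowers their MRL mean and spread by selection, and these p-values are not an independent test.

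Whether the response to injury itself differed between strains was tested as an interaction. Limma called 0 of the 9 genes for saline, ECM or PE against uninjured muscle and for ECM against PE, with 0%, 0.00706%, 0.0212% and 0% of all genes called. The only gene of the 9 at an unadjusted p under 0.05 in any of these 4 tests was C3 for PE, where the change was larger in MRL mice by 2.07 (SE 0.90, adjusted p = 0.38). That is 11.1% of the 9 genes, near the 11.7% of all genes at an unadjusted p under 0.05 in the same test. For C3ar1 the change with PE was smaller in MRL mice by -2.29 (adjusted p = 0.49), and without replicate 2 of PE-treated MRL mice by -3.85 (adjusted p = 0.0030), a call, where C3 was at 2.63 (adjusted p = 0.069). In that fit 5.22% of all genes were called with a lower change in MRL mice and 4.34% with a higher one. The library left out was singled out in these same data, so the call of C3ar1 is not an independent test.

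The order of the groups by mean level was not the same for all genes. C3ar1 and the C1q genes were highest in PE-treated and next in ECM-treated B6 mice and lowest in uninjured MRL mice. Neighbouring groups in these orders mostly overlapped. For C1qb the exceptions were the step from PE-treated to ECM-treated B6 mice and that from uninjured B6 to uninjured MRL mice, for C3ar1 the latter step alone, and for C1qc the step from saline-treated B6 to ECM-treated MRL mice. C5ar1 was highest in PE-treated B6 and next in PE-treated MRL mice, and its neighbours overlapped except for saline-treated and uninjured B6 mice. C2, C4b, C3 and Cfb were highest in PE-treated MRL mice, at means of 3.88, 6.75, 9.30 and 5.77 log2 CPM, and each overlapped with the next group. Below that, C3 separated PE-treated from saline-treated B6 mice, and no other neighbours of these 4 genes were apart.

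Within a library, the level of C1qb relative to C1qa also differed by strain. C1qb minus C1qa averaged -0.54 ± 0.10 log2 CPM in uninjured B6 mice and -0.99 ± 0.15 in uninjured MRL mice (SD, n = 3 each). The difference was -0.38 ± 0.20 and -0.76 ± 0.17 with saline, -0.60 ± 0.11 and -1.16 ± 0.29 with ECM, and 0.22 ± 0.17 and -0.93 ± 0.06 with PE, for B6 and MRL mice in turn. The strains did not overlap in any treatment but saline. Averaged over the 4 treatments, it was lower in MRL mice by -0.64 (2-sided exact permutation of strain within treatments, p = 2.5e-05, adjusted over the 3 C1q pairs 3.8e-05). C1qb minus C1qc was lower in MRL mice by -0.46 (exact permutation p = 1.2e-05, the smallest that 160000 arrangements can give, adjusted 3.8e-05) and C1qc minus C1qa by -0.17 (exact permutation p = 0.038, adjusted 0.038). For C1qc minus C1qa the treatments were not alike, with strain differences of -0.34 without injury and -0.38 with PE, where the strains did not overlap, and of 0.08 with saline and -0.06 with ECM, where they did. This relation was noticed in these libraries before it was tested on them. Replicate 2 of PE-treated MRL mice, at 6.00 for C1qb and 6.96 for C1qa, had the same relation as the others of its group. Reads of both strains were assigned to 1 reference transcriptome, and what that adds to the difference was not tested.

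**Figure D5:**
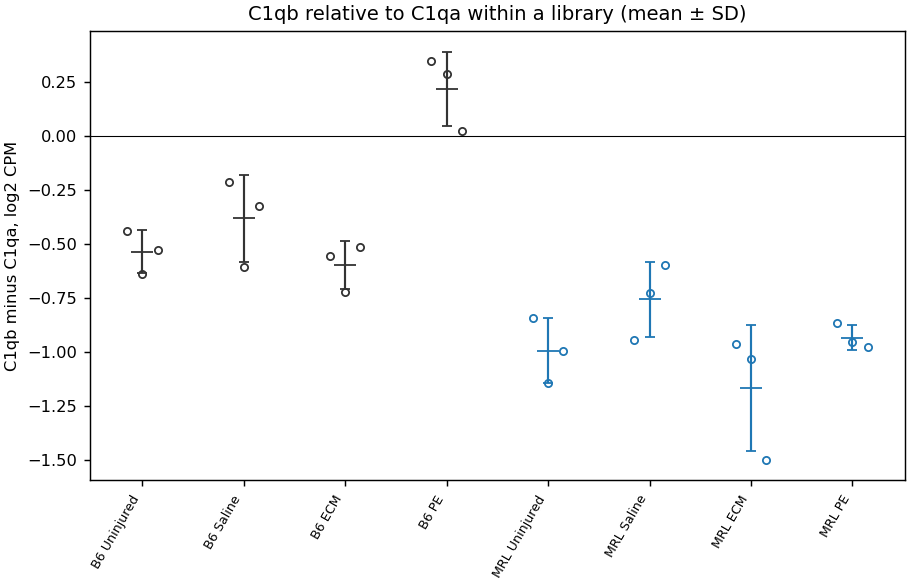
C1qb minus C1qa within each library (vertical axis, difference in log2 CPM), with points for the 3 libraries of a group and bars for the mean ± SD, B6 in black and MRL in blue. PE-treated B6 libraries are the only ones above 0 (mean 0.22), and MRL groups average between -1.16 and -0.76.

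Of 49 further complement genes listed by their role in the pathway, 36 were in the matrix. With PE in B6 mice limma called 9 of the 36 higher and 4 lower than in uninjured muscle, beside 14.7% of all genes called higher and 10% called lower, and their median log2 fold change was -0.02. The largest changes were in the chains of the complement receptors CR3 and CR4, which bind C3 fragments on myeloid cells. Itgam was at 2.50, 2.78 and 3.15 log2 CPM without injury and at 7.79, 8.63 and 6.84 with PE, a log2 fold change of 4.94 (limma adjusted p = 0.0033). Itgax rose by 8.05 and Itgb2 by 6.43 (limma adjusted p = 0.0038 and 0.0025), and these 3 genes were also those called against the control injury. C7, a component of the membrane attack complex, fell by 2.48 (limma adjusted p = 0.015).

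Regulators and proteases of the first steps moved less. C1ra, a protease of the C1 complex, rose by 1.32 with PE in B6 mice and by 1.57 in MRL mice (limma adjusted p = 0.023 and 0.045). Serping1, which encodes the C1 inhibitor, rose by 0.98 in B6 mice (limma adjusted p = 0.034), changed by 0.76 in MRL mice (0.098) and was lower with ECM than with PE in B6 mice by -1.57 (0.048). In PE-treated MRL mice limma called 4 of the 36 genes higher and none lower than in uninjured mice, beside 5.95% and 3.78% of all genes, among them C1s1 (log2 fold change 1.53), also a C1 protease, and Cfp (1.35), which encodes properdin, a stabilizer of the alternative enzyme. Without replicate 2 of the PE group none of the 36 was called in MRL mice, C1ra being at 1.23, C1s1 at 1.16 and Cfp at 1.09 (limma adjusted p = 0.19 for each). Between strains with PE, 1 of 36 was called, a share near the 3.35% of all genes called in either direction. It was C5ar2, a second C5a receptor gene, lower in MRL mice by -2.39, although the groups overlapped. Without replicate 2 of the MRL group 5 of the 36 were called higher and 6 lower in MRL mice, beside 10.6% and 14.1% of all genes. The higher ones were Cfd (log2 difference 3.40), C1rl (2.12), C8g (1.14), Masp2 (1.12) and Cd59a (0.82), and the lower ones Itgax (-7.59), Itgb2 (-5.65), Itgam (-4.56), C5ar2 (-3.20), Colec12 (-1.38) and Cd93 (-1.17). These calls depend on a library singled out in the same data and are not an independent test.

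Cfd, which encodes factor D (adipsin), the protease that activates factor B and a major product of adipocytes, was at 7.97, 9.83 and 8.44 log2 CPM in uninjured B6 mice and at 5.18, 6.39 and 6.33 with PE. In MRL mice it was at 4.57, 8.43 and 6.54 without injury and at 9.77, 6.18 and 8.96 with PE. The B6 PE libraries lay below the uninjured ones and the MRL groups overlapped. Neither change was called, at -2.78 in B6 and 1.79 in MRL mice (limma adjusted p = 0.064 and 0.23), and the difference between them, 4.57 (SE 1.53), had an adjusted p of 0.30. Without replicate 2 of PE-treated MRL mice that difference was 5.63 (limma adjusted p = 0.022), a call. In that fit 7 of the 36 genes were called for the interaction, 3 with a higher change in MRL mice, beside 4.34% of all genes, and 4 with a lower one, beside 5.22%. The other 2 higher ones were C7 (3.82) and Cd59a (1.35), and the lower ones were Itgax (-9.58), Itgb2 (-6.29), Itgam (-4.45) and C5ar2 (-2.70). As that library was singled out in the same data, these calls are not an independent test. Itgam in PE-treated MRL mice was at 3.14, 8.67 and 3.25 log2 CPM, with replicate 2 alone near the PE-treated B6 libraries, and was not called (log2 fold change 2.32, limma adjusted p = 0.094).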

How the data were processed

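Whole quadriceps of 24 mice, 3 per group, were sequenced from poly(A)-selected RNA. The authors assigned reads to Ensembl GRCm39 transcripts with kallisto, added up each gene with tximport (lengthScaledTPM), kept genes above 1 CPM in at least 3 libraries, and scaled libraries with edgeR's TMM method. They deposited log2 CPM values with a prior count of 2. Counts were not used here, so no count model was fitted.

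The matrix had 14160 rows, 1 of them with no symbol and so not used. Its minimum, -3.65 log2 CPM, marks a count of 0, from which the mean effective library size is 25149678 reads. A count of 0 allows up to 3 counts, or 0.119 CPM, which covers counting error only. The log2 values were fitted with limma 3.58.1 under R 4.3.3, with 1 coefficient per group over 24 libraries, variances that follow the mean level, 2-sided tests and Benjamini-Hochberg adjustment over 14159 genes. limma on log2 values took the place of the study's voom on counts. The procedure was tested on simulated data. Exact permutation tests of 3 libraries against 3 cannot go below p = 0.10. All 24 libraries are separate samples by their labels.

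The 9 genes, the other gene lists and the motifs were chosen with earlier results of these data known. The text gives all 9 genes. Of the other complement genes it gives up to 4 called genes of largest change per comparison, and Cfd, Serping1, C1ra and Itgam, and for each of the 9 the 3 genes of highest Pearson's r. Genes called without replicate 2 of PE-treated MRL mice were named after their values were seen. Other listed genes enter counts only, and 1 item is not reported here. Marker genes were summed on the linear CPM scale after removal of the prior. Whether equal replicate numbers mark pairs was checked from how their residuals correlated across genes. Only between PE-treated strains were all 3 correlations over 0.1 (0.105, 0.532 and 0.439), and with the replicate block C1qb was still called there (adjusted p = 0.040). Alternatives tried were a minimum mean log2 CPM of 1, equal library totals, quantile normalization, log2(CPM + 1), library weights, a replicate block, the compared groups alone, each library left out, and, added after seeing the data, C2 and Cfb summed with Gm20547 and the other complement genes without that library. Gene positions come from GENCODE on GRCm39 and promoters from RefSeq on GRCm38.p6. Figures used Python 3.11.15 and matplotlib 3.10.9.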

Additional observations from a re-analysis of the deposited data

Results flagged for a closer look

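For none of the 9 genes did the libraries of B6 and MRL mice separate in opposite directions under the same contrast. Among the other complement genes, 2 were set apart because every library of 1 strain moved one way and every library of the other strain the opposite way. Of all 14159 genes, 0.388% did so for ECM and 0.579% for PE against uninjured muscle, each contrast holding 1 of the 36 complement genes, and none of the 36 did so for saline against uninjured muscle or ECM against PE. Clu, which encodes clusterin, an inhibitor of the membrane attack complex, was lower in every ECM library than in any uninjured library of B6 mice and higher in every one of MRL mice, a difference between the strains' changes of 0.75 (SE 0.32, limma adjusted p = 1.00). Daf2, a decay-accelerating factor gene, was higher with PE in B6 mice and lower in MRL mice, a difference of -1.73 (SE 0.68, limma adjusted p = 0.34). Neither interaction was called, and Daf2 was low, below 0 log2 CPM in all PE libraries of both strains.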

How the results depend on the processing

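The 5 calls for PE against uninjured B6 mice were made in every alternative, with the count at 5 when any 1 library was left out. No value with an unadjusted p under 0.05 changed sign. Library weights moved the count of called genes most, to 1 for saline and 5 for ECM against uninjured muscle in B6 mice, 6 for PE against saline, 4 for ECM against PE, 6 for PE against saline and 3 for ECM against PE in MRL mice, 2, 4 and 7 between strains with saline, ECM and PE, and 4 for the interaction with PE. Fitting the compared groups only gave 3 calls for ECM against uninjured B6 mice, 0 for PE against uninjured MRL mice and 0 between PE-treated strains. For PE against uninjured MRL mice, quantile normalization gave 0. Equal totals gave 2 for ECM against PE in MRL mice and 0 between PE-treated strains. Library weights were lowest for replicate 2 of PE-treated MRL mice, at 0.0939, and highest for replicate 1 of PE-treated B6 mice, at 5.928. Counts of the alternative fits are given here without the share of all genes called in the same fit. They therefore do not set the complement genes apart from other genes. The causes were not tested. With 1 library left out, the counts ran from 0 to 4 for PE against saline in B6 mice, 0 to 8 for PE against uninjured, 0 to 3 for PE against saline and 0 to 2 for ECM against PE in MRL mice, 0 to 5 between PE-treated strains and 0 to 1 for the interaction with PE.

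With the replicate block, PE against uninjured MRL mice gave 0 calls, where the numbers did not pair the libraries, and other counts did not move. Equal totals moved the median of all genes by up to 0.41 on the log2 scale (PE against uninjured B6 mice), and quantile normalization by up to -0.18 (PE against saline in B6 mice). Of the alternative values of those genes, 575 stayed on their side of the threshold, 61 lost a call and 53 gained one. With 3 libraries a group, a missed threshold does not show that levels were equal, and the calls in PE-treated against uninjured MRL mice were all lost without replicate 2 of the PE group or replicate 1 or 3 of the uninjured group.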
